A study of Homo sapiens with 5 samples.

Results

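The genes described are the E2F transcription factors and the pocket proteins that bind them, in MDA-MB-231 cells exposed to the histone deacetylase inhibitor SAHA. They comprised 10 genes, the 7 factors E2F1, E2F2, E2F3, E2F4, E2F5, E2F7 and E2F8 and the 3 pocket proteins RB1, RBL1 and RBL2, of 19775 genes measured. Members were found by symbol in the array annotation, among probe sets it gives to a single gene. That left 22 of the 54613 probe sets that are not array controls, and no filter on level was applied. The MDA-MB-231 line comes from a human breast cancer and looks mesenchymal, and SAHA (vorinostat, suberoylanilide hydroxamic acid) blocks the enzymes that strip acetyl groups from histones. The series asked how expression changes on exposure to the drug. There were 3 samples of cells given the vehicle DMSO and 2 of cells given SAHA at 2 uM, all collected at 30 h, with 1 single-colour array a sample. No label says whether replicates were separate cultures, so the p-values rest on how far these arrays differ, possibly for technical reasons alone, and their number limits the precision.

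E2F factors bind promoters of genes needed for DNA replication and the G1/S transition. E2F1, E2F2 and E2F3 are classed as activators, E2F4 and E2F5 as repressors that work together with pocket proteins, and E2F7 and E2F8 as atypical repressors that bind DNA without a DP partner. RB1 holds the activators inactive until cyclin-dependent kinases phosphorylate it, while RBL1 (p107) and RBL2 (p130) mainly pair with E2F4 and E2F5. Pocket proteins recruit histone deacetylases to E2F sites, and several E2F genes are themselves E2F targets. In these bulk samples, fewer cells in a cell cycle phase and less RNA per cell cannot be told apart.

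Promoter sequence is shown first for genes with or without an exact match to E2F site letters, beside the way their mRNA moved. Other spellings of the E2F site were not searched for, so a stretch without capitals may still hold one. Sequences are from RefSeq on GRCh38.p14, with 8 of the 10 members matched and E2F5 and E2F8 without an entry. Each stretch is the 100 bases just before the gene's 5′ end, read 5′ to 3′ on the gene's strand, and capitals mark a match to TTTCGCGC or TTTGGCGC on either strand. E2F1, E2F2 and RBL1 are members that fell, TFDP1 is a DP partner that fell, E2F7 fell without such a match, and RBL2 was not called. In the order listed the stretches lie at chr20:33686386-33686485 (minus strand), chr1:23531234-23531333 (minus), chr20:37095998-37096097 (minus), chr13:113584588-113584687 (plus), chr12:77065570-77065669 (minus) and chr16:53434371-53434470 (plus).
E2F1: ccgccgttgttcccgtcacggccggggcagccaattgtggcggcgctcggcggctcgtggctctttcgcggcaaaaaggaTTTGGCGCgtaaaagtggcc
E2F2: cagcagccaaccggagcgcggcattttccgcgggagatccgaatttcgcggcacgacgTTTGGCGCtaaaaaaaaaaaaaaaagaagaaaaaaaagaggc
RBL1: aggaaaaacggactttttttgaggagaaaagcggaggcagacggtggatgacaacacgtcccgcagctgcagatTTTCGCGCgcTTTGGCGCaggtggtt
TFDP1: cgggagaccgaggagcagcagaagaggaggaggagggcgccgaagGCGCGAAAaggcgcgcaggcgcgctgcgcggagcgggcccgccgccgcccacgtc
E2F7: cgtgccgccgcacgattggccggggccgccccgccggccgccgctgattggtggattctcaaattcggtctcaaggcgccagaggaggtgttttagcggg
RBL2: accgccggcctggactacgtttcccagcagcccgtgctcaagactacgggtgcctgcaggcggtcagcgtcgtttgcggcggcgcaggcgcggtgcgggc

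Of the 10 members, 5 fell after SAHA and 0 rose (limma, Benjamini-Hochberg adjusted p under 0.05). The 5 were the activators E2F1 and E2F2, the atypical factors E2F7 and E2F8, and the pocket protein RBL1. The other 5, E2F3, E2F4, E2F5, RB1 and RBL2, were not called. Over all 19775 genes 15.6% were called lower and 14% higher, so the share of members called lower stood above the background. At an unadjusted p under 0.05 the counts were again 5 lower and 0 higher. The members' median log2 fold was -0.40, against -0.03 over all genes. For the 5 that fell both SAHA arrays lay below all 3 DMSO arrays, an arrangement found in 26% of all genes (22.1% had both SAHA arrays above). The count lower was 3 without DMSO 1 or DMSO 2. Fewer members were also called lower without SAHA 2. In that fit RBL2 was called higher, on equal DMSO values that leave it no measured spread. Values below are log2 intensities of the probe set with the highest mean, and a log2 fold is the SAHA mean minus the DMSO mean.

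The arrays correlated at r = 0.9972 to 0.9986 within a group and 0.9791 to 0.9801 between groups, across genes, which are not independent replicates. DMSO 1 stood apart in the ACTB control probe sets that report RNA integrity, with a 3′ minus 5′ difference of 3.29 on the log2 scale against 2.04 to 2.22 on the other 4 arrays. The 24 probe sets for polyadenylated control RNAs were higher on the SAHA arrays by a median of 0.39 on the log2 scale (range 0.17 to 0.66). Centring on these controls moves the median of all genes from -0.03 to -0.40, so every fold here is relative to the bulk of genes. With that centring 9 members were called lower, all but RBL2. Markers of the line (VIM, CD44, AXL, EGFR, CAV1 and MSN) had mean DMSO log2 levels of 10.33 to 13.97, all above the array medians of 6.47 to 6.51. Luminal markers gave 4.49 (PGR) to 10.28 (EPCAM), with CDH1 at 4.67 and ESR1 at 7.01. Leukocyte markers gave 3.78 (PTPRC) to 7.001 (CD3E, 3 of 4 measured) and fibroblast markers 5.56 (PDGFRA) to 9.39 (COL1A2), and none of these markers was at 0. After SAHA 2 of 6 line markers fell (AXL and MSN) and EGFR rose, 2 of 6 luminal markers fell (GATA3 and EPCAM, -0.26 and -0.72 on the log2 scale) and CDH1 rose 3.11-fold (limma adjusted p = 0.00259), 1 of 3 leukocyte markers fell (PTPRC) and CD14 rose 1.83-fold (limma adjusted p = 0.00562), and 1 of 4 fibroblast markers fell (COL1A2). The summed linear intensity of the line markers was 56863 to 57116 in DMSO and 49418 to 53467 in SAHA, and that of the luminal markers 2063 to 2238 and 1515 to 1664. For the leukocyte markers it was 250.5 to 279 and 348.7 to 349, and for the fibroblast markers 1228 to 1270 and 1089 to 1098. The line, luminal and fibroblast sums were lower in SAHA, as the called members were, while the leukocyte sum was higher. Linear sums follow the brightest genes, so the rise of the dim CDH1 hardly shows in the luminal sum. Behind the higher leukocyte sum CD14 rose, while PTPRC was called lower. The part of these sums in the members' change was not tested.

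**Figure D1:**
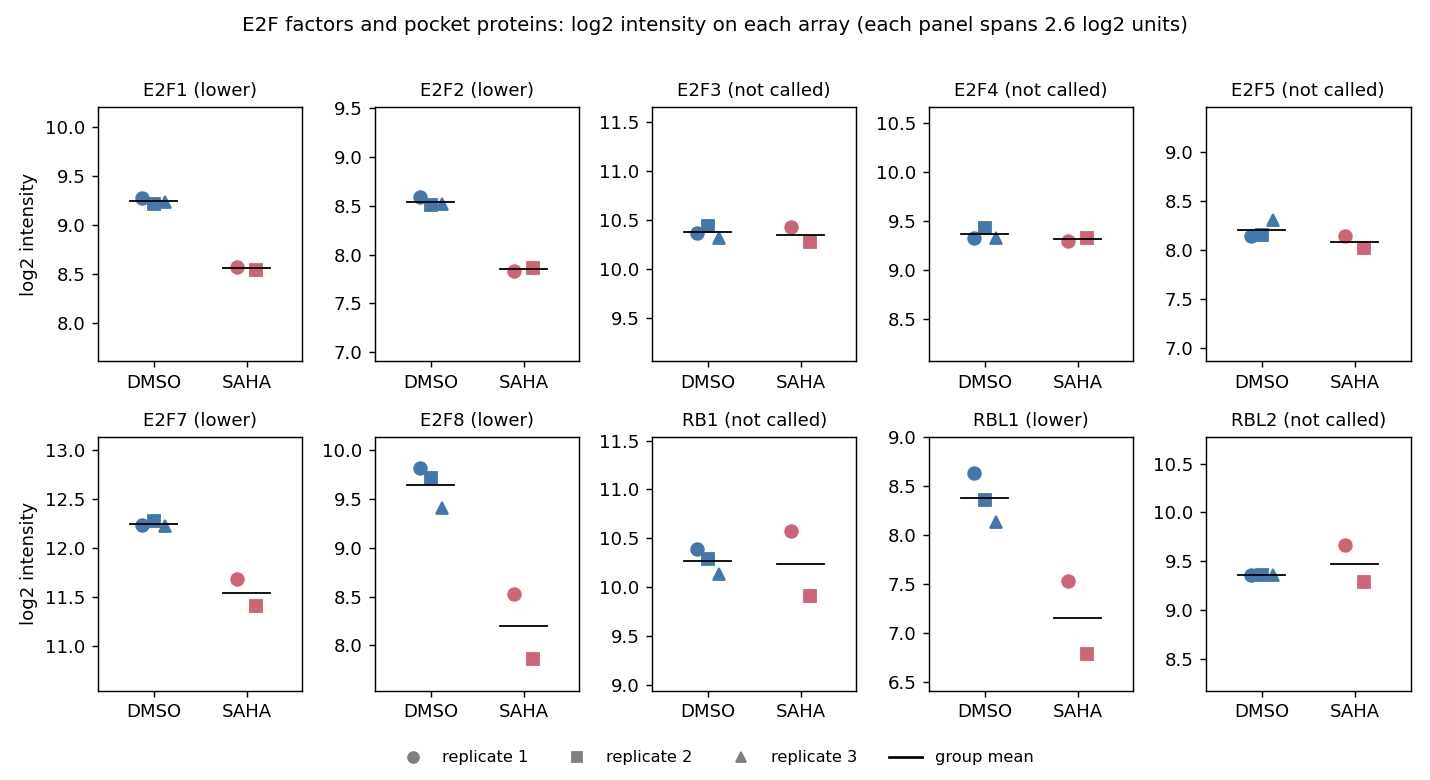
Log2 intensity of the 10 members (vertical axis) on each DMSO and SAHA array (horizontal axis), 1 panel a gene with the same span in every panel. Points are arrays, bars are group means of 3 DMSO and 2 SAHA arrays, and the panel title gives limma's call. The SAHA points lie below all DMSO points for E2F1, E2F2, E2F7, E2F8 and RBL1 and overlap them for the other 5.

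Among the activators, E2F1 and E2F2 fell by nearly the same amount and E2F3 did not pass the test. E2F1, which drives S-phase genes and when unrestrained also apoptosis, read 9.28, 9.22 and 9.23 on DMSO 1, 2 and 3 and 8.57 and 8.54 on SAHA 1 and 2. Its arrays differed by at most 0.06 within a group, and the groups were well separated. The log2 fold was -0.69 ± 0.04 (SE; limma adjusted p = 0.00101), or 62% of the DMSO level. E2F2, a close relative of E2F1, read 8.59, 8.51 and 8.52 in DMSO and 7.83 and 7.86 in SAHA. Again no SAHA array came near a DMSO array, and the log2 fold was -0.69 ± 0.04 (SE; limma adjusted p = 0.00111). E2F3 read 10.37, 10.44 and 10.32 in DMSO and 10.43 and 10.27 in SAHA. One of its SAHA arrays lay within the DMSO range and the other below it. Its log2 fold was -0.03, with a 95% interval of -0.21 to 0.15 (limma adjusted p = 0.801), which does not reach the folds of E2F1 and E2F2. That of E2F3 comes from a shared-sequence probe set, one whose name ends in _s_at and whose probes can match more than 1 transcript.

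Neither repressor that partners with pocket proteins passed the test. E2F4, a main partner of RBL2 in resting cells, read 9.33, 9.43 and 9.33 in DMSO and 9.30 and 9.33 in SAHA. Its groups overlapped, with a log2 fold of -0.05 and a 95% interval of -0.18 to 0.09 (limma adjusted p = 0.544). E2F5 read 8.14, 8.16 and 8.30 in DMSO and 8.14 and 8.02 in SAHA. Its SAHA 1 value equalled that of DMSO 1 to the 4 decimals kept. The log2 fold was -0.12, with a 95% interval of -0.32 to 0.07 (limma adjusted p = 0.312). Like that of E2F3, this value comes from a shared-sequence probe set. A p that misses the threshold does not show that these genes were unaffected, but the intervals leave out falls as large as that of E2F1.

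Both atypical factors fell, E2F8 with the lowest fold of all members. E2F7, which represses E2F targets late in S phase, read 12.24, 12.27 and 12.22 in DMSO and 11.68 and 11.40 in SAHA. Its SAHA arrays differed from each other by 0.28, several times the DMSO range of 0.05, yet both lay below all DMSO arrays. For E2F7 the log2 fold came to -0.70 ± 0.09 (SE; limma adjusted p = 0.00628). E2F8, which forms dimers with E2F7, read 9.82, 9.71 and 9.41 in DMSO and 8.53 and 7.86 in SAHA. Here the arrays within a group spread more widely, by 0.41 in DMSO and 0.67 in SAHA, and the groups still did not overlap. E2F8 fell 2.73-fold, or -1.45 ± 0.24 on the log2 scale (SE; limma adjusted p = 0.0128). Its call ended without DMSO 1, DMSO 2 or SAHA 2 (limma adjusted p = 0.0601, 0.0692 and 0.0546), where the log2 fold was -1.37, -1.42 and -1.11.

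Of the pocket proteins only RBL1 passed the test. RBL1 (p107), which is made mainly in cycling cells, read 8.63, 8.36 and 8.13 in DMSO and 7.53 and 6.78 in SAHA. Both SAHA arrays lay below the DMSO arrays, but the pair differed by 0.75 and the DMSO arrays by 0.50. RBL1 fell 2.33-fold, or -1.22 ± 0.27 on the log2 scale (SE; limma adjusted p = 0.0311). The call rested on the full set, and ended without any 1 of the 3 DMSO arrays, in order (limma adjusted p = 0.106, 0.119 and 0.0821, log2 folds of -1.09, -1.23 and -1.34), or without SAHA 2 (0.111, -0.85).

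RB1 and RBL2 had SAHA arrays on both sides of the DMSO arrays. RB1, the retinoblastoma protein, read 10.39, 10.29 and 10.14 in DMSO and 10.57 and 9.91 in SAHA. Its 2 SAHA arrays were the highest and the lowest of the 5, so the log2 fold of -0.03 has a wide 95% interval of -0.60 to 0.54 (limma adjusted p = 0.94). RBL2 (p130), which accumulates in resting cells, read 9.36 on each DMSO array and 9.67 and 9.28 in SAHA. The equal DMSO values give RBL2 no measured spread in that group. Its log2 fold was 0.12, with a 95% interval of -0.20 to 0.44 (limma adjusted p = 0.533). Without SAHA 2 the log2 fold of RBL2 was 0.31, and without SAHA 1 it was -0.08. With SAHA 2 left out RBL2 was called higher. Its equal DMSO values and single SAHA value then leave no measured spread. That call rests only on the spread limma borrows from other genes. SAHA 1 was above SAHA 2 in E2F7, E2F8, RB1, RBL1 and RBL2 by 0.28 to 0.75, and in E2F3 and E2F5 by 0.16 and 0.12. In E2F1, E2F2 and E2F4 these arrays differed by 0.03 to 0.04.

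Differences between members on the same array remove what an array shares. RBL1 minus RBL2 read -0.72, -1.001 and -1.23 on the DMSO arrays, then -2.14 and -2.50 on the SAHA arrays, a shift of -1.34. RBL1 minus RB1 read -1.75, -1.93 and -2.01 on the DMSO arrays, then -3.05 and -3.13 on the SAHA arrays, a shift of -1.19. The SD of RBL1 minus RB1 was 0.13 in DMSO (n = 3) and 0.06 in SAHA (n = 2), against 0.25 and 0.53 for RBL1 alone. That of RBL1 minus RBL2 was 0.25 and 0.26, so it did not fall in DMSO. Subtraction raised the SD of E2F1 minus E2F4 (0.08 and 0.05, against 0.03 and 0.03 for E2F1 alone). It also raised that of E2F7 minus E2F4 (0.04 and 0.22, against 0.03 and 0.19 for E2F7 alone). E2F1 minus E2F4 shifted by -0.64 and E2F7 minus E2F4 by -0.65. The arrays of the groups did not overlap in any of these 4 differences. Each difference sets a member that fell against 1 that was not called, so this adds little to the results of the single genes. A two-sided exact permutation test gave p = 0.2 for each, and 0.2 after Benjamini-Hochberg adjustment over the 4, which is the smallest p that 2 against 3 arrays allow.

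Several members had more than 1 probe set, and these did not all move alike. In a fit over all 54613 probe sets 6 of the 22 member probe sets were called lower and 0 higher (limma adjusted p under 0.05), where 9.05% of all probe sets were lower and 9.01% higher. Without any 1 of the DMSO arrays 3 were lower. At 8 of the 22 both SAHA arrays lay below all DMSO arrays, as at 21% of all probe sets. The log2 fold was below 0 at 21 of the 22, in several cases only slightly, and probe sets of a gene are not independent. By gene, 9 of the 10 members had a log2 fold below 0, as did 11355 of all 19775 genes. For E2F1 both probe sets were lower, with log2 folds of -0.69 (204947_at) and -0.63 (2028_s_at). E2F3, E2F4 and E2F5 had 2 probe sets each, with log2 folds between -0.12 and -0.0038 and none called.

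For E2F2 and E2F7 the dimmer probe sets showed smaller folds, while for RBL1 a dimmer one showed the largest. E2F2 fell at 228361_at (-0.69) but gave -0.21 and -0.06 at 235582_at and 207042_at, whose mean log2 levels of 5.85 and 5.80 lay below the array medians. E2F7 gave -0.70 at 228033_at and -0.22 at the dim 241725_at. RBL1 had 4 probe sets, of which 1555004_a_at read 6.69, 6.86 and 7.14 in DMSO and 5.60 and 5.04 in SAHA. That probe set fell by 1.58 on the log2 scale (limma adjusted p = 0.0153), and its groups did not overlap. The brightest, 205296_at, missed the threshold in this larger fit (limma adjusted p = 0.0525), and 1559307_s_at and 1555003_at gave -0.25 and -0.13 at mean levels of 6.08 and 4.21. With probe sets of a gene averaged the log2 folds were -0.66 for E2F1, -0.32 for E2F2, -0.46 for E2F7 and -0.80 for RBL1, all still called lower. The table holds no detection calls, so how far a dim probe set stood above background is not known.

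**Figure D2:**
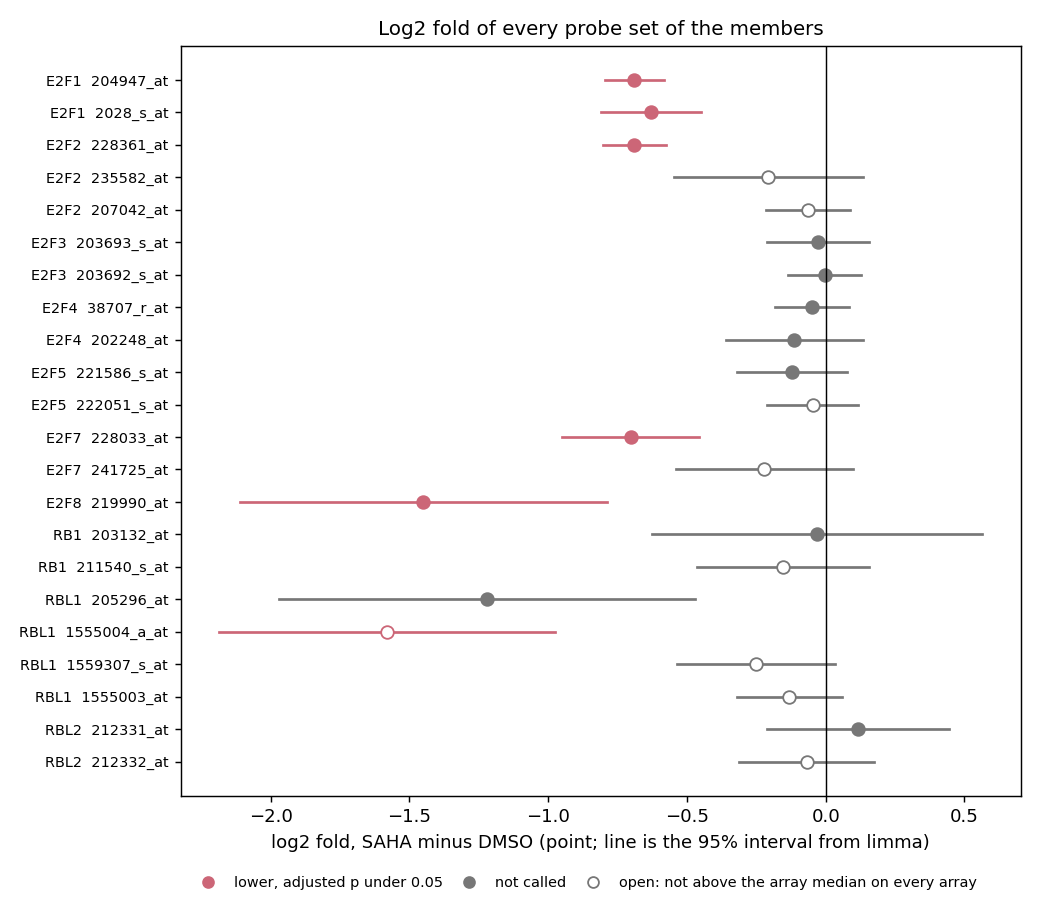
Log2 fold, SAHA minus DMSO (horizontal axis), of each of the 22 probe sets of the members (vertical axis), with limma's 95% interval. Red points were called lower, grey points were not called, and open points were not above the array median on all 5 arrays. The 6 called probe sets belong to E2F1 (2 of them), E2F2, E2F7, E2F8 and RBL1.

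Matches to the letters TTTCGCGC or TTTGGCGC, a consensus form of the E2F site, were searched on both strands in windows of 300 bases, 250 before and 50 after each start. E2F1 held TTTGGCGC starting 20 bases before its start, and E2F2 held it 42 bases before. RBL1 held TTTCGCGC at 26 and TTTGGCGC at 16 bases before its start, without overlap. These 3 are members that fell, and no match was found in the windows of E2F3, E2F4, E2F7, RB1 and RBL2. TFDP1 held TTTCGCGC on the opposite strand, 55 bases before the gene's 5′ end. The RB1 window lies within the gene and not at its 5′ end. TTTCGCGC was found in 0.515% and TTTGGCGC in 0.652% of all 35116 windows. The shorter letters TTTGAA, the CHR site bound by the MuvB complex, were found in E2F3 and RBL2 and in 15.2% of all windows. A match is a description of letters, and a window without one says nothing of the factor.

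**Figure D3:**
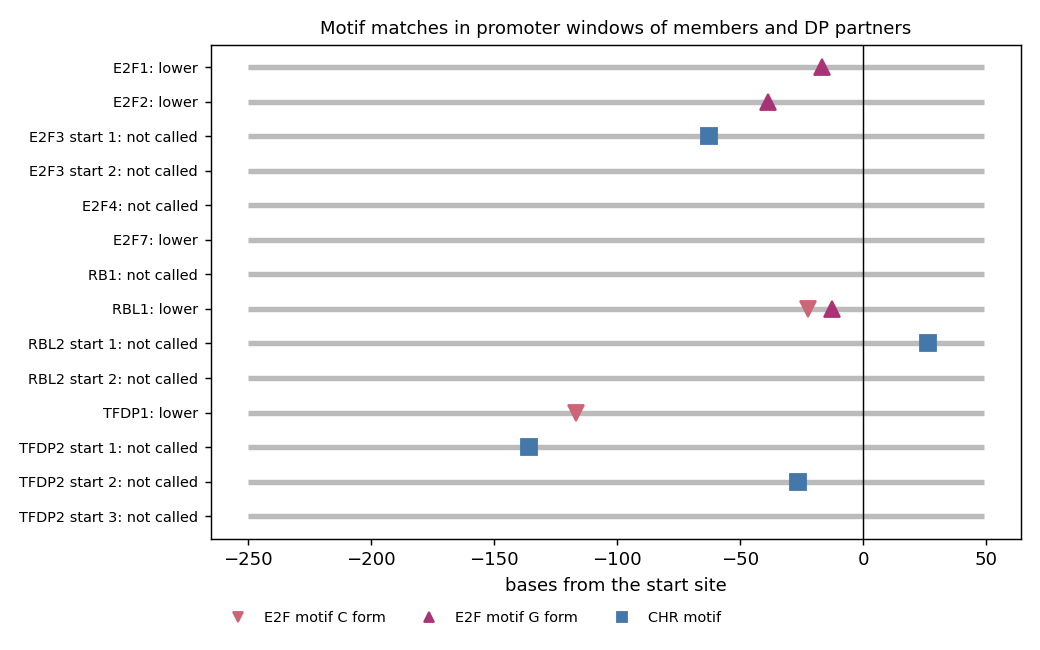
Positions of motif matches (triangles for the E2F forms, squares for the CHR motif) in promoter windows of the members and of the DP partners, in bases from the start site (horizontal axis), 1 line a window with limma's call for the gene. E2F matches lie in E2F1, E2F2 and RBL1, within 42 bases of the start, and in TFDP1.

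The DP partners and the MuvB complex, which joins E2F4 and pocket proteins in resting cells and MYBL2 or FOXM1 in cycling cells, were measured for all 11 genes listed. Of these 2 fell and 0 rose, with a median log2 fold of -0.17. The share that fell, 18.2%, was near the 15.6% of all genes called lower (14% were called higher). At an unadjusted p under 0.05 the counts were 4 and 1. Without SAHA 1 the count that fell was 4, and without DMSO 2 or SAHA 2 the count that rose was 1. TFDP1, the main DP partner of E2F1 to E2F5, read 11.66, 11.73 and 11.77 in DMSO and 10.45 and 10.42 in SAHA. That was 41% of the DMSO level, without overlap, and the fold on the log2 scale was -1.29 ± 0.05 (SE; limma adjusted p = 0.000518). FOXM1, which drives G2 and mitosis genes, was at -1.52 ± 0.10 on the log2 scale (SE; limma adjusted p = 0.00104). TFDP2, the other DP partner of these factors, gave 0.35 (limma adjusted p = 0.0737) and E2F6, a repressor that binds without pocket proteins, gave -0.05 (limma adjusted p = 0.791). MYBL2 gave -0.17 (limma adjusted p = 0.0515), and the MuvB genes of this list, LIN9, LIN37, LIN52 and LIN54, were not called. RBBP4, also a MuvB subunit, was listed with the corepressors below and was called lower (-0.68, limma adjusted p = 0.0265).

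Genes that E2F factors are known to activate were lower almost throughout. Of 32 listed, 29 were measured, and 26 of these fell and 0 rose (27 and 0 at an unadjusted p under 0.05). Their median log2 fold was -1.05, and 89.7% were called lower, where 15.6% of all genes were lower and 14% higher. TYMS, which makes thymidylate, gave -2.62, CCNE2, a cyclin that activates CDK2, -2.07, RRM2, a ribonucleotide reductase subunit, -1.72, and CDC45 of the replicative helicase -1.69 (limma adjusted p = 0.000341 to 0.00123). The 3 that were not called were named after their values were seen. They were CCNE1 (-0.03), CCNA2 (-0.62, limma adjusted p = 0.13) and CDK1 (-0.28). Without shared-sequence probe sets 21 targets were measured and 17 called lower, and with probe sets averaged TYMS gave -1.86. The list was drawn up with earlier results of these data known and is no independent evidence of direction.

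Genes listed for G1 control, not all of which act upstream of the pocket proteins, moved both ways. Of 16 measured G1 kinases, cyclins and inhibitors (17 listed), 6 fell and 4 rose, with a median of -0.16. Those that fell made up 37.5%, where 15.6% of all genes were lower and 14% higher. CCND2, a D-type cyclin that turns CDK4 and CDK6 on RB1, rose 3.07-fold (1.62 ± 0.16, SE; limma adjusted p = 0.0031) from a DMSO mean of 6.33, below the array medians, and with its probe sets averaged the log2 fold was 0.51. CDKN1C, the CDK inhibitor p57, fell by 1.24 on the log2 scale (-0.41 with its probe sets averaged). Of the other inhibitors, named after their values were seen, CDKN1A rose by 0.32 on the log2 scale (limma adjusted p = 0.0388). CDKN1B, CDKN2B and CDKN2D were not called. SKP2, which targets the inhibitor CDKN1B for destruction, fell by 1.21, and CDC25C, a phosphatase that activates CDK1, by 1.20 (limma adjusted p = 0.000661 and 0.00346). CDC25C is counted among the 6, although it acts on CDK1 at mitosis and not in G1. Its fold without shared-sequence probe sets was -0.18 (limma adjusted p = 0.112). The count of risen genes was 1 without SAHA 2 and 2 without each of the other 4 arrays.

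Corepressors that pocket proteins recruit were mixed as well. Of 12 measured (14 listed), 5 fell and 1 rose, with a median of -0.25. That is 41.7% lower, beside 15.6% lower and 14% higher over all genes. The histone methyltransferase SUV39H1 fell by 1.19 on the log2 scale and the DNA methyltransferase DNMT1 by 1.02 (limma adjusted p = 0.00157 and 0.00152). RBBP4, a histone chaperone of deacetylase complexes first found as an RB1 binder, fell by 0.68 (limma adjusted p = 0.0265). HDAC3, a deacetylase inhibited by SAHA, rose 1.66-fold (limma adjusted p = 0.00183). The call of RBBP4 ended without any 1 of the DMSO arrays and without SAHA 2, and the count of fallen corepressors was 2 to 3 with each array left out.

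**Figure D4:**
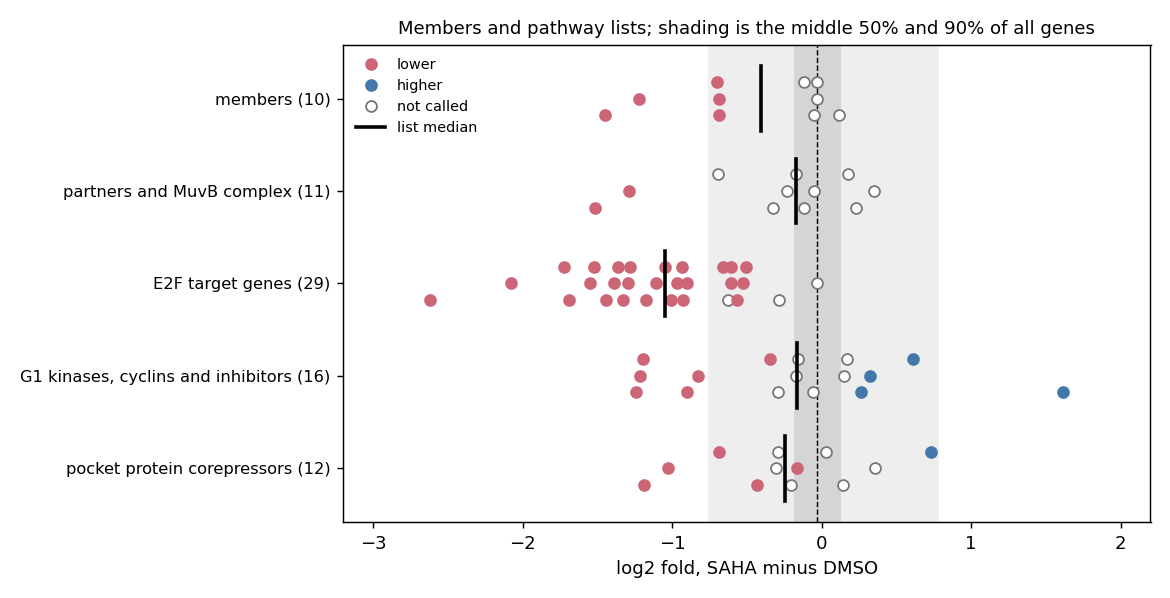
Log2 fold, SAHA minus DMSO (horizontal axis), of the members and of the genes of 4 pathway lists (vertical axis, number measured in parentheses). Red points were called lower, blue higher and open points not called, black bars are list medians, and shading covers the middle 50% and 90% of all 19775 genes. Of the E2F targets 26 of 29 points are red, and of the members 5 of 10. The shading describes single genes and is no scale for the medians.

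The genes whose centred log2 values over the 5 arrays were closest to those of E2F8, the member with the lowest fold, were TFPI, EVI2B and XBP1, at root mean square differences of 0.09, 0.09 and 0.10 on the log2 scale. Closest to RBL2, the member with the highest fold, were IL10RA, DMXL1 and SLC16A7, at 0.01, 0.02 and 0.02. Like RBL2, IL10RA and SLC16A7 had equal values on all DMSO arrays, so this likeness rests partly on ties. IL10RA (5.51 in DMSO) also lay below the array medians. With 2 groups of arrays many genes share such a pattern, and the likeness describes these 5 arrays only.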

How the data were processed

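Total RNA of MDA-MB-231 cells was read on 5 single-colour arrays (3 DMSO, 2 SAHA). Per the submitters' processing notes the values were made with RMA in R 2.12, and the deposited intensity values are on a linear scale (4.56 to 38935), so log2 was taken and nothing was normalized again. One label mentions a transfection that is described nowhere else. RMA aligns the arrays' distributions, which removes a shift shared by all transcripts. Of 54675 probe sets, 62 were controls and 41091 had 1 gene. Each gene was read from its brightest probe set, by the mean of the 5 arrays. The groups were tested against each other with limma 3.58.1 under R 4.3.3 (two-sided, no covariates, Benjamini-Hochberg over all 19775 genes, threshold 0.05), and likewise over all probe sets. The members and lists were chosen with earlier results of these data known. All members are named, as are up to 4 called genes a list, those with the highest absolute log2 fold, and the 3 genes most like the members with the lowest and highest fold. Some further genes, CDKN1A among them, were named beyond this rule. Alternatives covered scaling, dim genes (below the 40th percentile), the probe set, the variance model, array weights, a threshold of 0.01, each array left out and the replicate number as a block. A search of member proteins was not run. Figures used matplotlib 3.10.9.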

Additional observations from a re-analysis of the deposited data

How the results depend on the processing

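E2F1 and E2F2 were called lower under all 16 alternatives, with log2 folds of -1.06 to -0.66 and -1.06 to -0.32. E2F7 was lower under 15, with the replicate block as the exception (-0.71, limma adjusted p = 0.0690), E2F8 under 12 and RBL1 under 11. Replicate numbers did not pair the arrays by the labels, and deviations of same-numbered arrays correlated at 0.151 and -0.0669. With the replicate block 4 members, 0 member probe sets, 19 E2F targets, 2 partners and 2 corepressors were lower and 1 G1 gene was higher. In that fit DMSO 3 is alone in its block and adds nothing to the fold. Its folds equal those without DMSO 3 (E2F1 -0.69 and E2F8 -1.57 in both). It has fewer degrees of freedom, so the lower counts do not show an effect of pairing. With 0.01 as the threshold 3 members and 2 corepressors were lower and 1 G1 gene higher.

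Centred on the poly-A controls, 9 members, 21 member probe sets, 8 partners, 10 G1 genes and 9 corepressors were called lower and 1 G1 gene higher. In that setting E2F3, E2F4, E2F5 and RB1 lay at -0.40, -0.42, -0.49 and -0.40, close to the median gene (-0.40), and RBL2 at -0.26 (limma adjusted p = 0.0652). This centring lowers every fold by the same amount, so RBL2 changes sign while its distance from the median gene stays as it was. Over all genes 1361 were then higher and 14548 lower, against 2760 and 3089. Called partners were 1 higher with quantile normalization again, centring on the median gene, no dim genes or averaged probe sets, and 5 lower with centring on ribosomal protein genes or averaged probe sets. Corepressors were 2 higher with quantile normalization again, no dim genes or averaged probe sets. Without shared-sequence probe sets fewer genes were measured, and 17 of 21 targets, 1 of 10 partners, 2 of 10 G1 genes and 2 of 9 corepressors were lower, and 2 G1 genes and 0 corepressors higher. With averaged probe sets the shift of RBL1 minus RBL2 was -0.82, of RBL1 minus RB1 -0.70 and of E2F7 minus E2F4 -0.38.

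With 1 array left out at a time 3 to 5 members were lower and 0 to 1 higher, 3 to 4 member probe sets lower and 0 to 1 higher, 22 to 25 targets lower, 2 to 4 partners lower and 0 to 1 higher, 5 to 6 G1 genes lower and 1 to 2 higher, and 2 to 3 corepressors lower. The shift of RBL1 minus RBL2 was then -1.52 to -1.16, of RBL1 minus RB1 -1.24 to -1.12, of E2F1 minus E2F4 -0.69 to -0.61 and of E2F7 minus E2F4 -0.81 to -0.50. Members were lower in 3 without DMSO 1, DMSO 2 or SAHA 2. Such fits have fewer degrees of freedom, and without a SAHA array the other is assumed to vary like the DMSO arrays. The member called higher, also by probe set, was RBL2 without SAHA 2, where its equal DMSO values left no measured spread. The cause of the other changes was not tested. With no detection calls, signal over background limits what the dim probe sets can show.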

Other observations

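Across the array, 287 of the 15384 measured genes with a RefSeq promoter window held TTTCGCGC or TTTGGCGC within it. Of these 100 (34.8%) were called lower and 32 (11.1%) higher after SAHA by limma, where 16.8% of the 15384 genes were lower and 14.7% higher. The median log2 fold of genes with a match was -0.13, against -0.03 over the 15384. Of the 158 genes with TTTGGCGC, 41.1% were lower, and of the 135 with TTTCGCGC, 28.1%. For TTTGAA the share was 17% of 2399 genes. Among the E2F targets listed, 13 of 26 with a window held an E2F match, and of the G1 kinases, cyclins and inhibitors 0 of 13. Genes that share a start region share a window, and these shares describe the arrays with no test.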
